A study of Mus musculus with 11 samples.

Results

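FoxO transcription factors and a set of genes they are known to control were followed on 11 mouse expression arrays. The 10 gene symbols are Foxo1, Foxo3, Fbxo32, Ccng2, Irs2, Insr, Pik3ip1, Txnip, Sesn3 and Bcl6. They were picked by name from the FoxO pathway with earlier results of these arrays known, among them the rapamycin response of Fbxo32 and the uneven Ccng2 levels. The adjusted p-values below therefore place each gene among all genes measured and are no independent evidence for the set. All 10 symbols were on the array, with 17 of its 46237 probes. Of these probes 14 had a detection p under 0.05 on at least 2 arrays, and all 10 genes were among the 15908 genes tested.

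The cells were a mouse embryonic fibroblast line that lacks both p53 and TSC2, so these deletions are shared by every group, controls included. Cells received Crebl2 siRNA or Luciferase siRNA (against a gene mammals do not have) and then 20 nM rapamycin or ethanol, its vehicle, for 12 hours. The labels give 3 days of siRNA and the target Crebl2, whereas the series text gives 2.5 days and writes Creb2. Crebl2 siRNA had 3 rapamycin arrays and 3 ethanol arrays, and Luciferase siRNA had 3 rapamycin arrays and 2 ethanol arrays. One cell line and 1 siRNA label per target were used, and nothing states that replicates came from separate cultures. The spread between them may therefore be technical.

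FoxO factors are held out of the nucleus when insulin or growth factors activate PI3K and the kinase Akt, which phosphorylates them. When that signal drops they enter the nucleus and switch on genes that slow growth, raise stress resistance and restore insulin sensitivity, among them Irs2 and Insr. TSC2 restrains the mTOR complex that rapamycin inhibits. In cells without TSC2 this complex is constantly active and, by feedback, lowers signalling through the insulin receptor substrates.

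Promoter windows were available from RefSeq (GRCm38.p6) for 8 of the 10 symbols, running from 250 bases before to 50 bases after the gene start. Fbxo32 and Insr had no entry. Both strands were searched for the FoxO core motif GTAAACA, the insulin response motif CAAAACA and the E-box CACGTG. The windows that held a motif are shown because each belongs to a gene whose level is described below as changing with rapamycin or with Crebl2 siRNA. They are read 5′ to 3′ along the gene, with motif matches in capitals. Txnip lies at chr3:96557707-96558006 (plus strand), Bcl6 at chr16:23988803-23989102 (minus strand), Irs2 at chr8:11008880-11009179 (minus strand) and Ccng2 at chr5:93267323-93267622 (plus strand).
Txnip: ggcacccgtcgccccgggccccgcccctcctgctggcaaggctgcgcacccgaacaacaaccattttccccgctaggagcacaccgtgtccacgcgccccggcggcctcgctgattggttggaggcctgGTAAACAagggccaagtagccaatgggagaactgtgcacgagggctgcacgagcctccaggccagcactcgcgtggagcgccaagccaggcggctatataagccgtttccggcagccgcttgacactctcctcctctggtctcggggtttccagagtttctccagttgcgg
Bcl6: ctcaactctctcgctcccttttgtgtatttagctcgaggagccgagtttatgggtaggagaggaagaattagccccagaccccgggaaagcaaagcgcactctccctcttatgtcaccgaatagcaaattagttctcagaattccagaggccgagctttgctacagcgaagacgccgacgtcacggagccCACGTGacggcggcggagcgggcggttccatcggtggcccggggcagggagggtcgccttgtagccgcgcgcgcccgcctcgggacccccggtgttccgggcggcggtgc
Irs2: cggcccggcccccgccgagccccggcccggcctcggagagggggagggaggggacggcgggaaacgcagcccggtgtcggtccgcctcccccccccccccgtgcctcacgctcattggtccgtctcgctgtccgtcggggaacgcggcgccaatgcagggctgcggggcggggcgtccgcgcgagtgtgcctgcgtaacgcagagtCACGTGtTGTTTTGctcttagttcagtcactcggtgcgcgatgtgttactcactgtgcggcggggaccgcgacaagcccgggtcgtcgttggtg
Ccng2: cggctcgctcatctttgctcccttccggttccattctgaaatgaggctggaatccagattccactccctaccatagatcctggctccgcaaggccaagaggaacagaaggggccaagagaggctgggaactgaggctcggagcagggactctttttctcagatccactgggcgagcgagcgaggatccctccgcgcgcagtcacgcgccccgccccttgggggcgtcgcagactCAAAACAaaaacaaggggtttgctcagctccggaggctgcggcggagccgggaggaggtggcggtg
GTAAACA was found in Txnip, with its first base at position -121 relative to the gene start. It occurs in 3.65% of all 32851 promoter windows. CAAAACA was found in Ccng2 at position -16 and, as TGTTTTG on the opposite strand, in Irs2 at position -37. It occurs in 6.28% of all windows. CACGTG was found in Bcl6 at position -60 and in Irs2 at position -44, where it does not overlap the other motif, and it occurs in 7.15% of all windows. These matches are descriptions of the letters in the windows. The windows of Foxo1, Foxo3, Pik3ip1 and Sesn3 and a second Bcl6 window held none of the motifs.

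Levels are log2 of the authors' normalized intensity, from which no background was subtracted. Dim probes carry mostly background on this scale, and their differences are compressed. Background correction here means neqc on the matched non-normalized intensities, which also brings the arrays to a common distribution (quantile normalization). It moved many differences of dim genes by over 1.5 times, and those values are given beside the larger differences. Between 46.9% and 51.2% of probes were detected per array, with median intensities of 110.5 to 112.4. The 3 rapamycin arrays of Crebl2 siRNA and its ethanol replicate 3 stood apart from the other 7. Correlations over all genes were 0.99 to 0.995 among these 4, 0.984 to 0.997 among the 7, and 0.93 to 0.949 between the sets. The first principal component held 73.8% of the variance. In the comparison of siRNAs under rapamycin this split coincides with the groups, so the siRNA and the split cannot be told apart there except through replicate 3. Values from a fit with an added term for membership of the 4 arrays, called the 4 arrays as a block, are therefore given beside each result they alter.

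The Crebl2 probe was dim. It averaged 6.80 ± 0.08 with Crebl2 siRNA and rapamycin, 6.86 ± 0.20 with Crebl2 siRNA and ethanol (SD, n = 3 each), 7.10 ± 0.20 with Luciferase siRNA and rapamycin (SD, n = 3) and 7.05 ± 0.01 with Luciferase siRNA and ethanol (SD, n = 2). The knockdown difference was -0.30 ± 0.12 (SE) under rapamycin (adjusted p = 0.0779) and -0.19 ± 0.13 (SE) in ethanol (adjusted p = 0.447), neither past the threshold. The brightest Tsc2 probe read 9.18 to 10.29 over the 11 arrays, and another read 9.06 to 9.99. A dimmer one read 7.04 to 8.05 and was higher on the 4 arrays that stood apart, where the brighter ones were lower. Whether these probes lie in the deleted part of the gene is not given in the sources used here. They therefore do not check the deletion. For cell type markers, detection was taken at a stricter detection p, under 0.01. All 9 fibroblast markers were detected on every array. Of the markers of other cell types, Ptprc, Adgre1, Lyz2, Epcam, Myod1, Actc1, Adipoq, Fabp4 and Plin1 were detected on no array, whereas Cdh1, Krt8, Krt18, Krt19, Csf1r, Kdr, Tek and Des were detected on all. The rest, Cd68, Pecam1, Cdh5, Tie1, Myog and Lep, were detected on some arrays. The summed intensity of the 4 tested epithelial markers was 3319 to 3749 with Crebl2 siRNA and rapamycin, 2452 to 4161 with Crebl2 siRNA and ethanol, 4551 to 5201 with Luciferase siRNA and rapamycin, and 4685 to 4747 with Luciferase siRNA and ethanol. Of these, 1 was called with rapamycin under each siRNA, Krt18, at 0.70 in Crebl2 siRNA cells and 0.74 in Luciferase siRNA cells, where Krt19 differed by -0.24 and -0.29 without passing. With Crebl2 siRNA 1 was called in ethanol (Krt18, -0.58) and 2 under rapamycin (Krt18, -0.62, and Krt8, -0.42). Of the 9 fibroblast markers 0 were called with rapamycin under either siRNA and 1 with Crebl2 siRNA in ethanol (Col6a1, -0.55). With Crebl2 siRNA under rapamycin, where the split coincides with the groups, 7 were called. Of these, 3 were higher (Col1a2, 3.78 ± 0.78, SE, the most) and 4 lower (Col6a1, -1.27 ± 0.12, SE, the most). The share of all genes called was 12.2% with rapamycin in Crebl2 siRNA cells and 10.1% in Luciferase siRNA cells. With Crebl2 siRNA it was 7.39% in ethanol and 32.9% under rapamycin. The part of these markers in the results below was not tested.

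**Figure D1:**
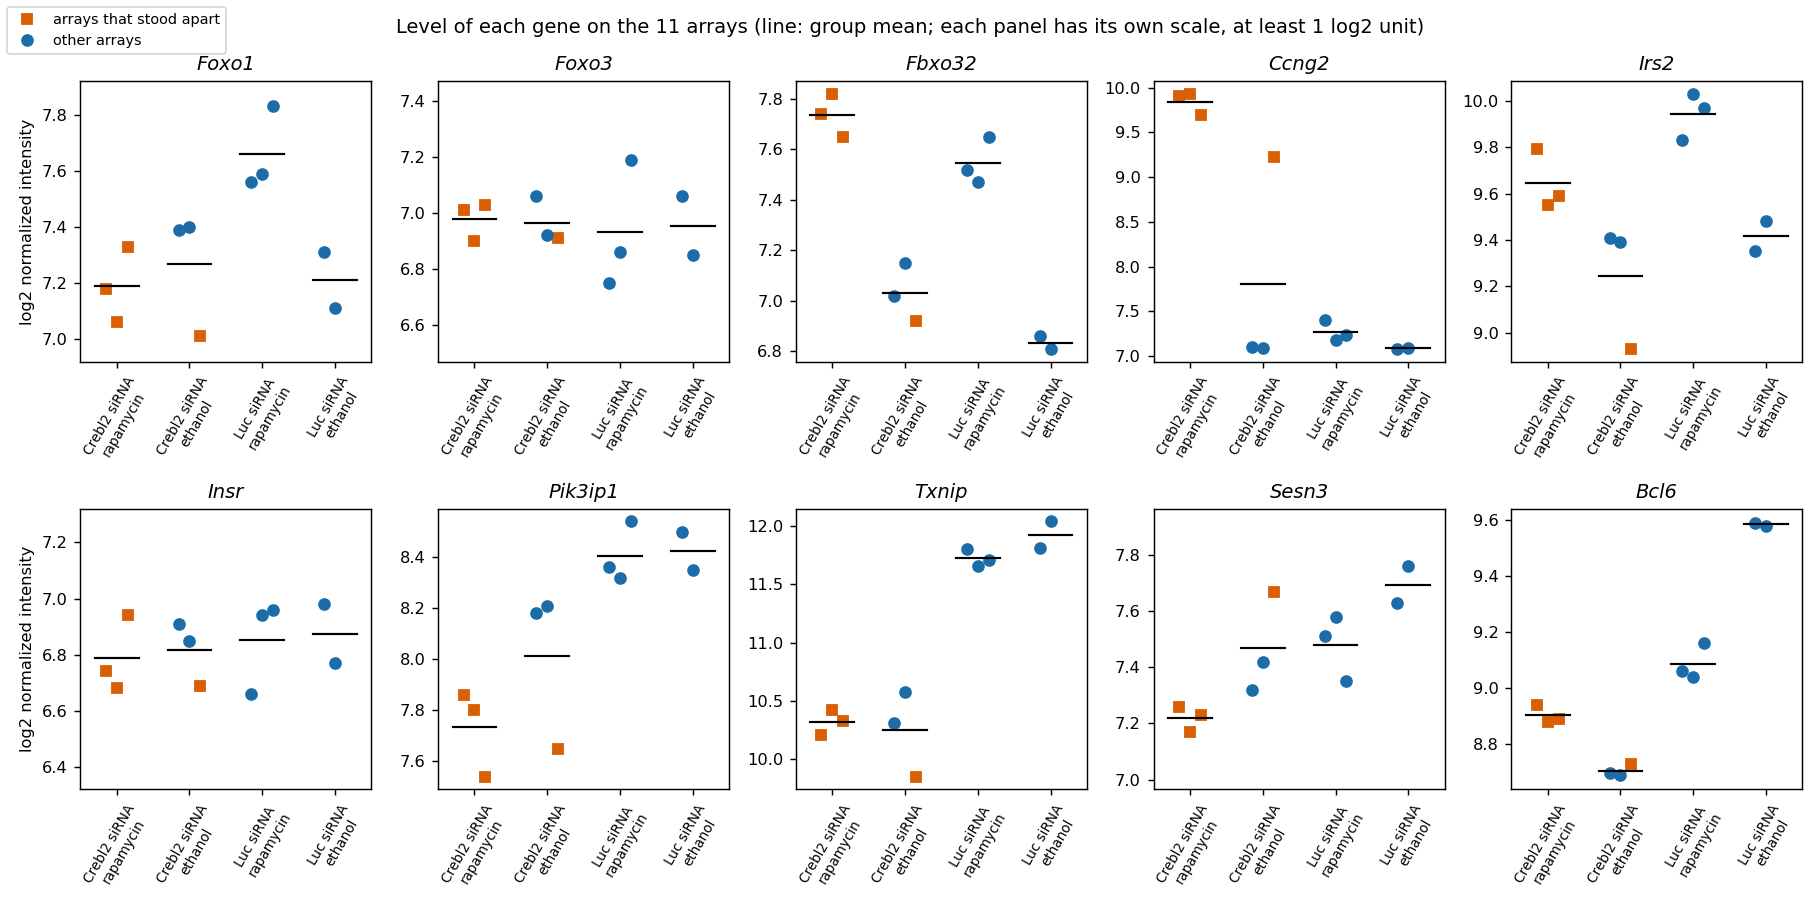
Log2 normalized intensity (vertical axis) of the probe that stands for each of the 10 genes on every array, by group (horizontal axis); horizontal lines are group means and squares mark the 4 arrays that stood apart. Fbxo32 is higher with rapamycin than with ethanol under both siRNAs, Txnip and Bcl6 are lower with Crebl2 siRNA in ethanol, and the Ccng2 values of the 4 squares lie at 9.22 to 9.93.

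Rapamycin in Luciferase siRNA cells was the comparison whose own 5 arrays all lay outside the 4, although the 4 enter the shared estimate of the spread. Fbxo32 and Irs2 rose and Bcl6 fell, while the other 7 genes did not pass the threshold. This makes 2 genes higher and 1 lower of 10, beside 10.1% of all genes called. The median difference was -0.017 over the 10 genes and 0.017 over all genes. The groups did not overlap for 44.5% of all genes. Each gene was tested in 1 limma fit of the 4 groups, with Benjamini-Hochberg adjustment over all 15908 genes.

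In Crebl2 siRNA cells, Fbxo32 and Ccng2 rose with rapamycin and none of the 10 fell. That is 2 higher and 0 lower of 10, beside 12.2% of all genes called. The median was 0.043 over the 10 genes and -0.022 over all genes, and groups did not overlap for 25.5% of all genes. These rapamycin comparisons are presented gene by gene, beginning with the factors and followed by the targets that act on insulin signalling, growth and proteolysis.

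Foxo1 encodes the FoxO factor best known in liver, muscle and fat metabolism. Its brighter probe read 7.18, 7.06 and 7.33 with Crebl2 siRNA and rapamycin, 7.39, 7.40 and 7.01 with Crebl2 siRNA and ethanol, 7.56, 7.59 and 7.83 with Luciferase siRNA and rapamycin, and 7.31 and 7.11 with Luciferase siRNA and ethanol. All 3 rapamycin arrays of Luciferase siRNA lay above both of their ethanol arrays, whereas with Crebl2 siRNA the groups overlapped. The rapamycin difference in Luciferase siRNA cells was 0.45 ± 0.14 (SE; adjusted p = 0.0753) and did not pass. It passed in a fit of the 7 other arrays alone (0.45, adjusted p = 0.00313), and adjusted p ranged from 0.00268 to 0.43 over 20 alternatives. After background correction the difference was 0.90 ± 0.34 (SE; adjusted p = 0.165). In Crebl2 siRNA cells it was -0.08 ± 0.13 (SE; adjusted p = 0.74), -0.29 after background correction and 0.18 with the 4 arrays as a block. The dimmer Foxo1 probe differed by 0.20 ± 0.09 (SE) with rapamycin in Luciferase siRNA cells and was detected on 6 of 11 arrays.

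Foxo3, which encodes a second widely expressed FoxO factor, stayed close to background. Its detected probe read 6.75 to 7.19 over the 11 arrays, with group means of 6.93 to 6.98, and its other 2 probes were detected on 0 and 1 arrays. The 4 comparisons gave differences of -0.03 to 0.05, which at this brightness do not exclude changes of the transcript.

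Irs2 encodes an adaptor that carries the insulin receptor's signal to PI3K. It read 9.79, 9.55 and 9.59 with Crebl2 siRNA and rapamycin, 9.41, 9.39 and 8.93 with Crebl2 siRNA and ethanol, 9.83, 10.03 and 9.97 with Luciferase siRNA and rapamycin, and 9.35 and 9.48 with Luciferase siRNA and ethanol. Under each siRNA, every rapamycin array lay above every ethanol array. In Luciferase siRNA cells Irs2 rose by 0.53 ± 0.14 (SE; adjusted p = 0.0402). That call sat at the threshold. It was lost on leaving out any one array other than replicates 1, 2 and 3 of Crebl2 siRNA with ethanol, with differences of 0.47 to 0.60 and adjusted p up to 0.257. It was also lost after background correction (adjusted p = 0.11), with normexp and median scaling (0.101) and with every probe tested (0.0506), and 9 of 20 alternatives kept it. The 7 arrays alone gave adjusted p = 0.000328. In Crebl2 siRNA cells the difference was 0.40 ± 0.13 (SE; adjusted p = 0.0681), and 0.71 with the 4 arrays as a block (adjusted p = 0.000834; 0.000834 to 0.297 over 19 alternatives). The block value rests on the 1 ethanol array among the 4, replicate 3. Without that replicate the difference was 0.24 (adjusted p = 0.0589), and of the 19 only the block passed.

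Insr, the insulin receptor gene, had 2 dim probes that were detected on 6 and 4 of 11 arrays. The brighter one read 6.66 to 6.98 and its group means ran between 6.79 and 6.87. Rapamycin gave -0.03 ± 0.11 (SE) in Crebl2 siRNA cells and -0.02 ± 0.12 (SE) in Luciferase siRNA cells, so no difference was measurable at this signal.

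Pik3ip1 encodes a membrane protein that inhibits PI3K. It read 7.86, 7.80 and 7.54 with Crebl2 siRNA and rapamycin, 8.18, 8.21 and 7.65 with Crebl2 siRNA and ethanol, 8.36, 8.32 and 8.54 with Luciferase siRNA and rapamycin, and 8.50 and 8.35 with Luciferase siRNA and ethanol. The rapamycin and ethanol ranges overlapped under both siRNAs. Differences were -0.28 ± 0.15 (SE; adjusted p = 0.242) in Crebl2 siRNA cells and -0.02 ± 0.17 (SE; adjusted p = 0.981) in Luciferase siRNA cells. Without ethanol replicate 3 the first was -0.46 (adjusted p = 0.000835), but then rapamycin and the split cannot be told apart. With the 4 arrays as a block it was 0.09, and after background correction it was -0.54.

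Sesn3 encodes a sestrin, a stress protein that restrains the mTOR complex. It read 7.26, 7.17 and 7.23 with Crebl2 siRNA and rapamycin, 7.32, 7.42 and 7.67 with Crebl2 siRNA and ethanol, 7.51, 7.58 and 7.35 with Luciferase siRNA and rapamycin, and 7.63 and 7.76 with Luciferase siRNA and ethanol. All rapamycin arrays lay below the ethanol arrays of the same siRNA. The differences were -0.25 ± 0.10 (SE; adjusted p = 0.133) in Crebl2 siRNA cells and -0.22 ± 0.11 (SE; adjusted p = 0.312) in Luciferase siRNA cells, neither past the threshold. After background correction they were -0.67 in Crebl2 siRNA cells and -0.44 in Luciferase siRNA cells. Without ethanol replicate 3 the Crebl2 siRNA value was -0.15. The block for the 4 arrays gave -0.45 in Crebl2 siRNA cells (adjusted p = 0.0234), the one alternative of those run in which that difference passed. This value rests on the 1 ethanol array among the 4.

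Ccng2 encodes cyclin G2, an unconventional cyclin linked to cell cycle arrest. It read 9.90, 9.93 and 9.69 with Crebl2 siRNA and rapamycin, 7.10, 7.09 and 9.22 with Crebl2 siRNA and ethanol, 7.40, 7.18 and 7.24 with Luciferase siRNA and rapamycin, and 7.08 and 7.09 with Luciferase siRNA and ethanol. The high values belong to the 4 arrays that stood apart, and the ethanol replicate among them exceeded its 2 companions by 2.13. That deviation ranked 259 of 15908 genes by size, and 4.96% of genes deviated by over 1. In Crebl2 siRNA cells Ccng2 rose by 2.03 ± 0.44 (SE; adjusted p = 0.016). Against the 1 ethanol array that shared the split the difference was 0.62, which is also the value with the 4 arrays as a block (0.62 ± 0.13, SE; adjusted p = 0.00278). Without that array it was 2.74 (adjusted p = 1.23e-17), but then all rapamycin arrays and no ethanol array of Crebl2 siRNA belong to the split. Rapamycin and the split cannot be told apart in that fit. The call was lost on leaving out either other ethanol replicate (1.68) or any rapamycin replicate of Crebl2 siRNA (1.99 to 2.11), and in a fit of these 2 groups alone (adjusted p = 0.101; 1.23e-17 to 0.101 over 19 alternatives). In Luciferase siRNA cells the difference was 0.19 ± 0.49 (SE; adjusted p = 0.904), and 0.46 after background correction. That correction gave 2.88 in Crebl2 siRNA cells.

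Bcl6 encodes a transcriptional repressor of lymphocyte and metabolic genes. It read 8.94, 8.88 and 8.89 with Crebl2 siRNA and rapamycin, 8.70, 8.69 and 8.73 with Crebl2 siRNA and ethanol, 9.06, 9.04 and 9.16 with Luciferase siRNA and rapamycin, and 9.59 and 9.58 with Luciferase siRNA and ethanol. The 4 groups did not overlap, and the spread within each was small. Rapamycin lowered Bcl6 by 0.50 in Luciferase siRNA cells, a difference of -0.50 ± 0.08 (SE; adjusted p = 0.00223). In Crebl2 siRNA cells the difference was 0.19 ± 0.07 (SE; adjusted p = 0.0842). The first missed the threshold with normexp background and median scaling (adjusted p = 0.072), and its adjusted p ranged from 0.00019 to 0.072 over 20 alternatives.

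Fbxo32 encodes atrogin-1, the F-box subunit of a ubiquitin ligase that marks proteins for breakdown in wasting muscle. Its main probe read 7.74, 7.82 and 7.65 with Crebl2 siRNA and rapamycin, 7.02, 7.15 and 6.92 with Crebl2 siRNA and ethanol, 7.52, 7.47 and 7.65 with Luciferase siRNA and rapamycin, and 6.86 and 6.81 with Luciferase siRNA and ethanol. Every rapamycin array lay above every ethanol array, whichever siRNA was used. It rose by 0.71 ± 0.09 (SE; adjusted p = 0.00124) in Crebl2 siRNA cells and by 0.71 ± 0.10 (SE; adjusted p = 0.00113) in Luciferase siRNA cells.
The probe was near background in ethanol, detected on 1 of 2 arrays with Luciferase siRNA. After background correction the differences were 1.49 ± 0.20 (SE), or 2.81-fold, in Crebl2 siRNA cells and 1.91 ± 0.22 (SE), or 3.76-fold, in Luciferase siRNA cells. Within the 4 arrays that stood apart, the rapamycin difference was 0.82. A second detected probe differed by 0.36 ± 0.12 (SE; adjusted p over all probes 0.0783) in Crebl2 siRNA cells and 0.30 ± 0.13 (SE; adjusted p over all probes 0.237) in Luciferase siRNA cells, and the remaining probe was detected on 1 array.

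Txnip encodes an arrestin-like protein that binds thioredoxin and limits glucose uptake. It read 10.21, 10.42 and 10.33 with Crebl2 siRNA and rapamycin, 10.31, 10.58 and 9.85 with Crebl2 siRNA and ethanol, 11.80, 11.66 and 11.71 with Luciferase siRNA and rapamycin, and 11.81 and 12.04 with Luciferase siRNA and ethanol. The siRNA groups were far apart, and the rapamycin groups were close. Rapamycin gave 0.07 ± 0.16 (SE; adjusted p = 0.813) in Crebl2 siRNA cells and -0.20 ± 0.17 (SE; adjusted p = 0.597) in Luciferase siRNA cells. With the 4 arrays as a block the Crebl2 siRNA value was 0.47 (adjusted p = 0.0313), and its adjusted p passed in none of the other alternatives run. That block value rests on the 1 ethanol array among the 4.

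**Figure D2:**
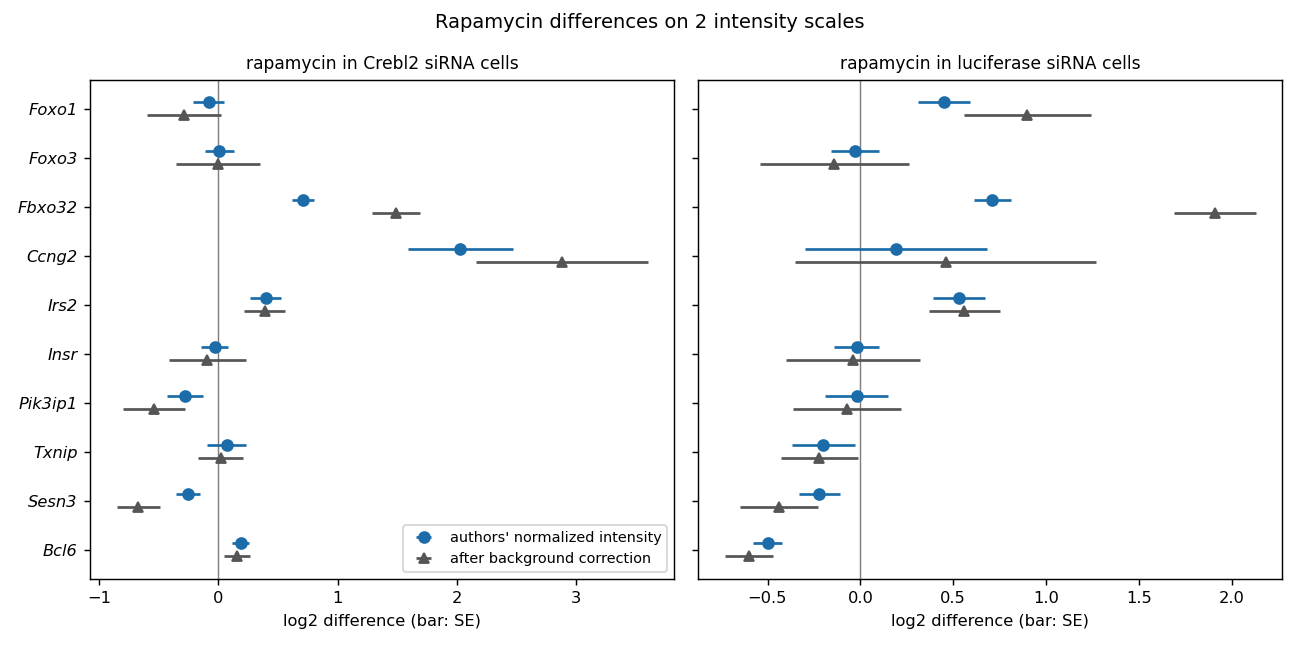
Log2 difference of rapamycin minus ethanol (horizontal axis; bars are SE) for the 10 genes in Crebl2 siRNA cells and in Luciferase siRNA cells, on the authors' scale (circles) and after background correction (triangles). The Fbxo32 difference is 0.71 under both siRNAs on the authors' scale and 1.49 and 1.91 after correction.

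Crebl2 siRNA in ethanol lowered Txnip and Bcl6, and the other 8 genes did not pass. This is 0 higher and 2 lower of 10, beside 7.39% of all genes called, of which 232 were higher and 944 lower. The median was -0.113 over the 10 genes and -0.031 over all genes, and groups did not overlap for 37.5% of all genes. Txnip fell by 1.68, a difference of -1.68 ± 0.17 (SE; adjusted p = 0.000489). Its second probe differed by -1.28 ± 0.16 (SE; adjusted p over all probes 0.00173). Bcl6 fell by 0.87, a difference of -0.87 ± 0.08 (SE; adjusted p = 0.000267). In the 7 arrays without the split the differences were -1.48 for Txnip and -0.89 for Bcl6. Both calls were lost in a fit of these 2 groups alone, with adjusted p = 0.0678 for Txnip (4.24e-09 to 0.0678 over 20 alternatives) and 0.0517 for Bcl6 (9.7e-07 to 0.0517 over 20 alternatives).

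Of the genes that did not pass in ethanol, Ccng2 differed by 0.72 ± 0.49 (SE; adjusted p = 0.437), and by 0.01 without replicate 3 of Crebl2 siRNA. Pik3ip1 differed by -0.41 ± 0.17 (SE; adjusted p = 0.183), and by -0.23 without that replicate. Sesn3 differed by -0.22 ± 0.11 (SE; adjusted p = 0.295) and Fbxo32 by 0.19 ± 0.10 (SE; adjusted p = 0.283). Without that replicate, Sesn3 differed by -0.32 and passed (adjusted p = 0.0421). In the 7 other arrays alone the same Sesn3 difference did not pass (adjusted p = 0.053), and 2 of 20 alternatives called it. Background correction put Fbxo32 at 0.73 ± 0.22 (SE; adjusted p = 0.104), Ccng2 at 1.21 and Sesn3 at -0.38.

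Under rapamycin, Ccng2 was higher and Txnip, Pik3ip1 and Foxo1 were lower on the Crebl2 siRNA arrays, all of which belong to the split. This is 1 higher and 3 lower of 10, beside 32.9% of all genes called. The median was -0.22 over the 10 genes and -0.08 over all genes, and groups did not overlap for 50.6% of all genes. Ccng2 differed by 2.57 ± 0.44 (SE; adjusted p = 0.0025). Txnip differed by -1.40 ± 0.16 (SE; adjusted p = 0.000332), Pik3ip1 by -0.67 ± 0.15 (SE; adjusted p = 0.00657) and Foxo1 by -0.47 ± 0.13 (SE; adjusted p = 0.016).
With the 4 arrays as a block only the Txnip call of these remained, at -0.81 (adjusted p = 0.00775). The block left Ccng2 at 0.44 (adjusted p = 0.152), Pik3ip1 at -0.13 (adjusted p = 0.812) and Foxo1 at -0.09 (adjusted p = 0.877). Over 19 alternatives adjusted p ranged from 2.79e-18 to 0.152 for Ccng2, from 1.43e-06 to 0.812 for Pik3ip1 and from 0.000184 to 0.877 for Foxo1. The Foxo1 call was also lost without replicate 3 of Luciferase siRNA with rapamycin (-0.39) and without replicate 2 of Crebl2 siRNA with rapamycin (-0.41). Background correction gave 3.63 for Ccng2, -1.05 for Pik3ip1 and -1.03 for Foxo1.

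In ethanol, replicate 3 of Crebl2 siRNA set against its 2 companions deviated the same way as these called differences, by 2.13 for Ccng2, -0.59 for Txnip, -0.55 for Pik3ip1 and -0.38 for Foxo1. For Bcl6 it deviated by 0.03. All of these arrays had the same treatment and siRNA label.

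**Figure D3:**
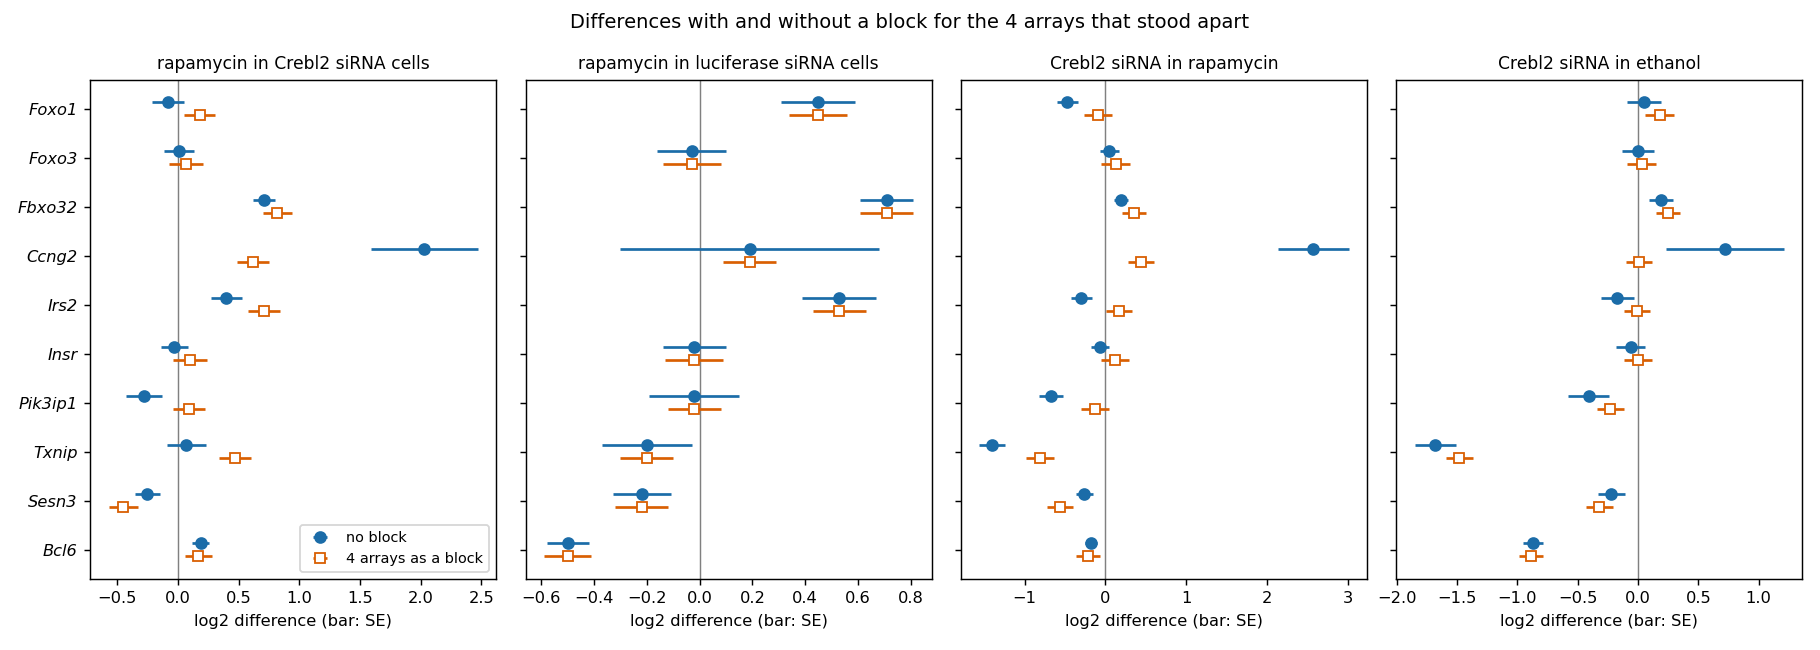
Log2 differences (horizontal axis; bars are SE) of the 10 genes in the 4 comparisons, without a block (circles) and with the 4 arrays as a block (squares); panels have their own horizontal scales. The Ccng2 difference for Crebl2 siRNA in rapamycin is 2.57 without and 0.44 with the block. Differences with rapamycin in Luciferase siRNA cells are the same in both by construction, as none of those arrays is among the 4.

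The rapamycin response itself differed between siRNAs for Bcl6 and for none of the other 9 genes. This is 1 higher and 0 lower of 10, beside 0.383% of all genes called in the interaction. The response in Crebl2 siRNA cells minus that in Luciferase siRNA cells was 0.69 ± 0.10 (SE; adjusted p = 0.026) for Bcl6. The call was lost after background correction (0.76, adjusted p = 0.159) and on leaving out any one array other than replicate 3 of Crebl2 siRNA with ethanol (0.66 to 0.73), and adjusted p ranged from 0.000148 to 0.213 over 18 alternatives. For Fbxo32 the difference between the responses was 0.00 ± 0.13 (SE), for Irs2 -0.14 ± 0.19 (SE) and for Foxo1 -0.53 ± 0.19 (SE; adjusted p = 0.274). Without ethanol replicate 3 of Crebl2 siRNA, Foxo1 (-0.65), Ccng2 (2.55) and Pik3ip1 (-0.45) passed as well, but then all rapamycin arrays and no ethanol array of Crebl2 siRNA belong to the split. With the 4 arrays as a block they did not pass, at -0.27 for Foxo1 (adjusted p = 0.533), 0.43 for Ccng2 (adjusted p = 0.196) and 0.10 for Pik3ip1 (adjusted p = 0.87), whereas Bcl6 (0.67, adjusted p = 0.0127) and Txnip (0.67, adjusted p = 0.0352) did. These block values rest on the 1 ethanol array of Crebl2 siRNA among the 4. Without that array the difference between the responses was 0.08 for Txnip and 0.70 for Bcl6. Background correction gave -1.18 for Foxo1 and -0.42 for Fbxo32, neither past the threshold.

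Other genes of the pathway were counted from a list of 22 inputs of FoxO (kinases, receptors, cofactors and further FoxO genes), of which 18 were tested, and a list of 40 further FoxO targets, of which 32 were tested. Rapamycin in Luciferase siRNA cells gave 3 inputs higher and 1 lower, beside 10.1% of all genes called, with a median of 0.05 over the inputs and 0.02 over all genes. Leaving out 1 array gave 1 to 7 called, 1 without either ethanol array of Luciferase siRNA and 7 without ethanol replicate 3 of Crebl2 siRNA. Igf1r, the receptor for insulin-like growth factor, rose by 0.74 ± 0.12 (SE; adjusted p = 0.00324). Pik3r1, the regulatory subunit of PI3K, rose by 0.72 ± 0.16 (SE) and Sgk1, a kinase that phosphorylates FoxO factors, by 0.50 ± 0.12 (SE). Pik3cb, a catalytic subunit of PI3K, differed by -0.49 ± 0.10 (SE; adjusted p = 0.00935).

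Among the further targets 3 were higher and 5 lower in that comparison, beside the same 10.1%, with a median of 0.02, the same as over all genes. Leaving out 1 array gave 3 to 16 called, 3 and 4 without the ethanol arrays of Luciferase siRNA and 16 without ethanol replicate 3 of Crebl2 siRNA. The largest were Cdkn1a, the cyclin-dependent kinase inhibitor p21, at -1.63 ± 0.12 (SE), Gadd45a, a stress and DNA repair gene, at -1.56 ± 0.13 (SE), and the transcription factor Klf4 at -1.28 ± 0.13 (SE). Ccnd1, the cyclin D1 gene, which FoxO factors are known to repress, was lower too, at -0.63 ± 0.15 (SE; adjusted p = 0.0205). Klf2, a related transcription factor, rose by 0.56 ± 0.10 (SE; adjusted p = 0.00487). In the 7 arrays without the split, 8 targets were higher and 8 lower.

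**Figure D4:**
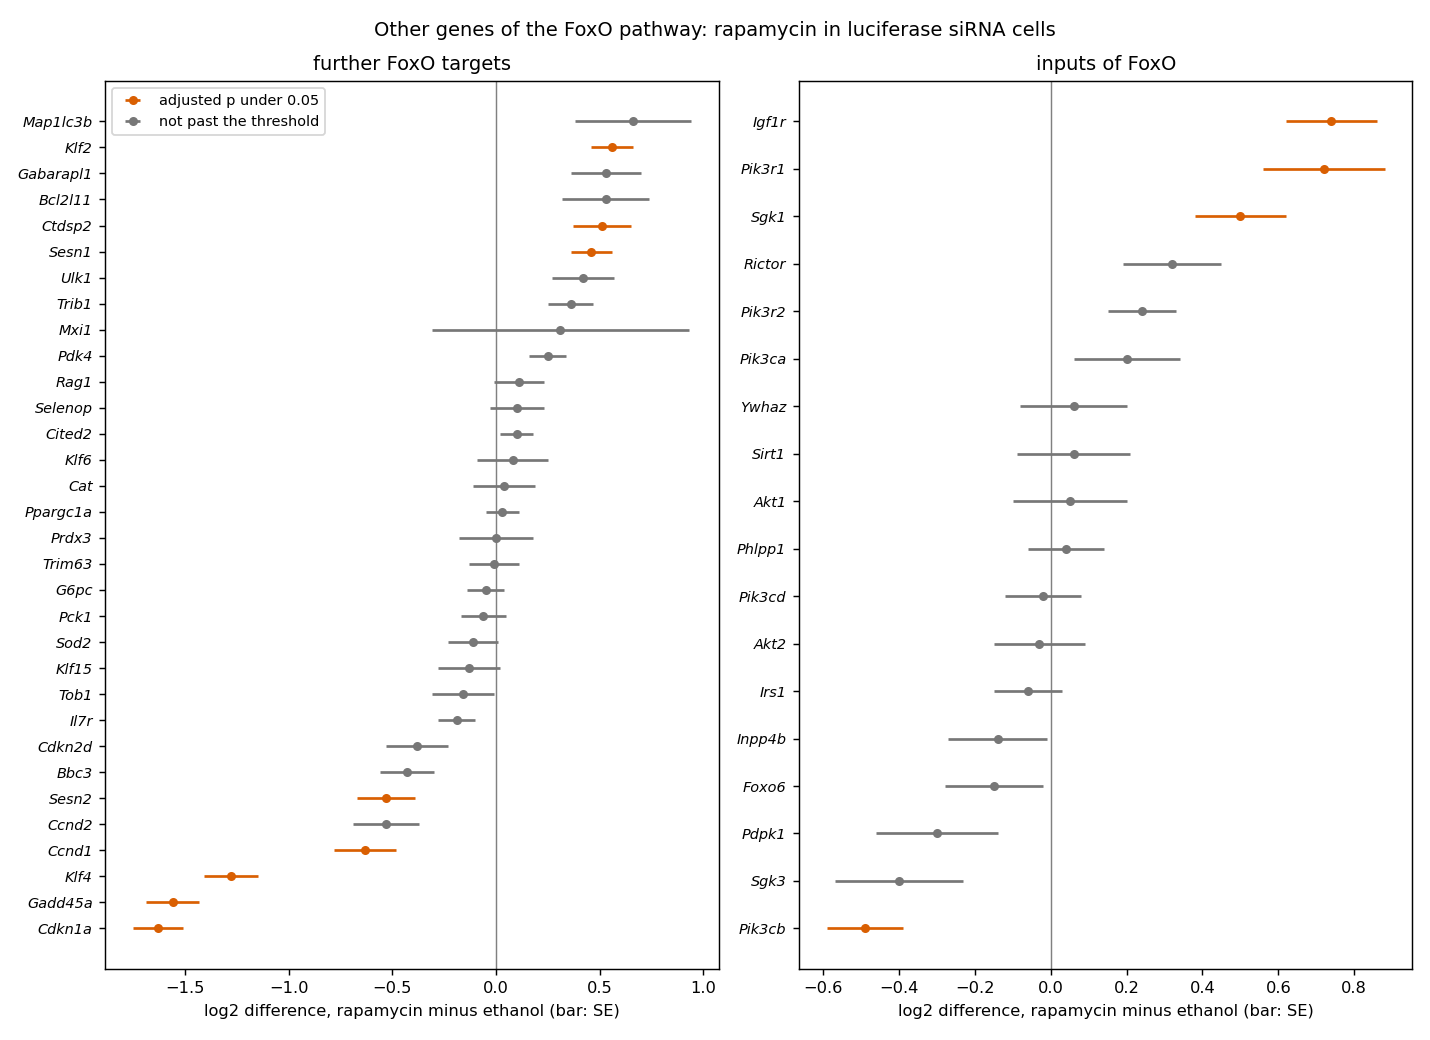
Log2 difference of rapamycin minus ethanol in Luciferase siRNA cells (horizontal axis; bars are SE) for each tested gene of the 2 pathway lists, with those past an adjusted p of 0.05 in orange. The further targets (left) hold 3 higher and 5 lower, and the inputs (right) 3 higher and 1 lower.

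In Crebl2 siRNA cells rapamycin gave 3 inputs higher and 0 lower, and 2 further targets higher and 5 lower, beside 12.2% of all genes called. Leaving out 1 array gave 0 to 10 inputs and 3 to 15 targets, the highest without ethanol replicate 3, and the 4-array block 3 inputs and 3 targets. Sgk1 rose by 0.51 ± 0.10 (SE), Rictor, a subunit of the mTOR complex that activates Akt, by 0.50 ± 0.11 (SE) and Igf1r by 0.45 ± 0.11 (SE). Ccnd1 differed by -1.01 ± 0.13 (SE; adjusted p = 0.0019), Ccnd2 by -0.75 ± 0.14 (SE) and Sesn2, another sestrin gene, by -0.50 ± 0.13 (SE). Map1lc3b, an autophagosome gene, differed by 0.88 ± 0.25 (SE; adjusted p = 0.0456). It read 10.54 to 10.67 with rapamycin and 9.24 to 10.49 in ethanol, where the SD was 0.66. After background correction 0 inputs were called in either direction.

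Crebl2 siRNA in ethanol gave 0 inputs higher and 1 lower, Pik3cb at -0.67 ± 0.10 (SE). It gave 0 further targets higher and 5 lower. These were Gadd45a (-2.02 ± 0.13), Cdkn1a (-1.34 ± 0.12), Klf4 (-1.19 ± 0.13), the cell death gene Bbc3 (-0.73 ± 0.13) and Tob1, a growth suppressor (-0.65 ± 0.15; all SE). The share of all genes called was 7.39%, and leaving out 1 array gave 0 to 2 inputs and 3 to 9 targets. Under rapamycin Crebl2 siRNA gave 2 inputs higher and 2 lower, and 3 targets higher and 11 lower, beside 32.9% of all genes called, with the largest difference in Mxi1 at 2.28 ± 0.56 (SE). Mxi1 read 10.29 to 10.45 with Crebl2 siRNA and rapamycin and 7.76 to 8.36 with Luciferase siRNA and rapamycin. With Crebl2 siRNA and ethanol it ran from 7.69 to 10.37, with an SD of 1.54. Leaving out 1 array gave 0 to 7 inputs and 10 to 16 targets. With the 4 arrays as a block the higher and lower counts were 0 and 0 for the inputs and 0 and 1 for the targets.

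The rapamycin response of 3 further targets, and of 0 inputs, differed between the siRNAs, beside 0.383% of all genes called. Leaving out 1 array gave 0 to 14 targets, the highest without ethanol replicate 3 of Crebl2 siRNA. The response in Crebl2 siRNA cells minus that in Luciferase siRNA cells was 1.37 ± 0.18 (SE; adjusted p = 0.0209) for Klf4, 1.22 ± 0.17 (SE; adjusted p = 0.0226) for Gadd45a and 1.08 ± 0.16 (SE; adjusted p = 0.0271) for Cdkn1a. After background correction 0 of the 32 passed. These comparisons share arrays, so their values are not independent of each other.

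The genes whose levels were most like that of Fbxo32 over the 11 arrays were Frat2 (Pearson r = 0.977), Sun2 (0.974) and Nostrin (0.965), and over the 7 arrays without the split these values were 0.977, 0.963 and 0.956. For Irs2 they were Sfi1 (0.978), Fbxo6 (0.969) and Bicral (0.965), with 0.964, 0.975 and 0.958 over the 7 arrays. Ccng2 was most like Epb4.1l2 (0.996), Hmga2 (0.994) and Ngly1 (0.993), but over the 7 arrays these were 0.842, -0.003 and 0.528. The arrays share their groups and the split, so these are descriptions of likeness, picked as the highest of all genes.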

How the data were processed

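RNA was amplified and labelled with the Illumina TotalPrep kit, per the labels' protocols, and read on single-colour bead arrays. The deposited normalized table holds the authors' intensity and detection p-value per probe. Its normalization method is not given in the sources used here. The deposited non-normalized table lists its identifiers against lines to which they do not belong: by identifier its intensities correlated with the normalized ones at -0.00964 to -0.00628 per array. Matching lines by their ranks over the arrays paired all 46237, with correlations of 0.99965 to 1.0 and 32 identifiers kept. Those matched intensities served only for background-corrected values. Of the 46237 probes 35784 had 1 symbol in the platform annotation and 10453 none. Array number limits the precision.

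Probes with detection p under 0.05 on at least 2 of 11 arrays were kept (28936). The probe with the highest mean stood for its gene. Log2 of the authors' normalized intensity (floor 1, never reached) was fitted with limma 3.58.1 in R 4.3.3 (lmFit and eBayes, 4 group means, 7 residual degrees of freedom), two-sided, adjusted by Benjamini-Hochberg over all 15908 genes, threshold 0.05. Background-corrected values came from neqc (offset 16), which includes quantile normalization between arrays. The fit and the matching were tested on simulated data. The members and gene lists were chosen with earlier results of these data known. Genes named from the 2 pathway lists are up to 5 per comparison past the threshold with the largest difference. For Fbxo32, Ccng2 and Irs2 the 3 genes with the highest correlation are named. Alternatives covered background, scaling, probe filter, all probes, the groups fitted, replicate number, the 4 arrays and leaving out each array.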

Additional observations from a re-analysis of the deposited data

Results flagged for a closer look

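Bcl6 responded to rapamycin differently under the 2 siRNAs, by the interaction term of the fit. The rapamycin difference was 0.19 in Crebl2 siRNA cells and -0.50 in Luciferase siRNA cells, and their difference was 0.69 ± 0.10 (SE; limma, adjusted p = 0.026). Of 18 alternatives 5 kept the call. All kept the sign.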

How the results depend on the processing

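Over 232 alternative values of the 12 called differences of the FoxO genes, 232 kept their sign and 194 stayed past the threshold. Settings such as leaving out an array outside the compared groups or fitting only those groups cannot move a difference. The kept signs are therefore partly fixed by design. Counts of all genes called moved most. For rapamycin in Luciferase siRNA cells (1606) they were 1011 with neqc, 828 with normexp and median scaling, 3207 with only the compared groups, 3532 with the 4 arrays as a block, 3483 in the 7 other arrays and 510 to 3532 leaving out 1 array. The share of higher calls is 461 of 1011 with neqc and 462 of 828 with median scaling, against 835 of 1606. For rapamycin in Crebl2 siRNA cells (1946) they were 433 with the compared groups, 1137 with the block and 610 to 6202 leaving out 1 array. For Crebl2 siRNA in ethanol (1176) they were 636 with neqc, 502 with median scaling, 757 with the replicate block, 2077 with the 4-array block, 2081 in the 7 arrays, 211 to 2077 leaving out 1 array and, in limma with only the compared groups, 0 (2265 at an unadjusted p under 0.05). For Crebl2 siRNA in rapamycin (5231) they were 444 with the block and 3770 to 7080 leaving out 1 array. Testing each of the 28936 kept probes there called 8676, a count of probes and not of genes. For the interaction (61) the counts of genes were 5 with neqc, 2 with median scaling, 5 with the replicate block, 329 with the 4-array block and 1 to 4369 leaving out 1 array. The highest of each of these ranges came without replicate 3 of Crebl2 siRNA with ethanol.

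Of the 10 FoxO genes, rapamycin in Luciferase siRNA cells called 3, or 1 with median scaling and 2 to 4 leaving out 1 array. Rapamycin in Crebl2 siRNA cells called 2, or 1 with the compared groups, 5 with the 4-array block and 1 to 3 leaving out 1 array. Crebl2 siRNA in ethanol called 2, or 0 with the compared groups (2 at an unadjusted p under 0.05) and 2 to 3 leaving out 1 array. Crebl2 siRNA in rapamycin called 4, or 1 with the block and 3 to 6 leaving out 1 array. The interaction called 1, or 0 with neqc, median scaling or the replicate block (3, 2 and 3 at an unadjusted p under 0.05), 2 with the 4-array block and 0 to 4 leaving out 1 array. The cause of these shifts was not tested.

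Signs turned in 21 of 38 uncalled differences. For rapamycin in Luciferase siRNA cells median scaling gave Insr 0.01 and Pik3ip1 0.01, the replicate block Ccng2 -0.02 and Pik3ip1 0.06, and leaving out 1 array Foxo3 -0.16 to 0.08, Insr -0.12 to 0.09 and Pik3ip1 -0.09 to 0.06. For rapamycin in Crebl2 siRNA cells median scaling gave Txnip -0.11, the 4-array block Foxo1 0.18, Insr 0.10 and Pik3ip1 0.09, and leaving out 1 array Foxo3 -0.01 to 0.06, Insr -0.10 to 0.03 and Txnip -0.13 to 0.24. For Crebl2 siRNA in ethanol the replicate block gave Foxo3 -0.04, the block and the 7 arrays Insr 0.00, and leaving out 1 array Foxo1 -0.05 to 0.18, Foxo3 -0.10 to 0.11 and Insr -0.16 to 0.05. For Crebl2 siRNA in rapamycin the block gave Irs2 0.17 and Insr 0.12, and leaving out 1 array Foxo3 -0.04 to 0.18. For the interaction the replicate block gave Insr 0.01, the 4-array block Fbxo32 0.11, Irs2 0.18, Insr 0.12 and Pik3ip1 0.10, and leaving out 1 array Foxo3 -0.06 to 0.17, Fbxo32 -0.06 to 0.05, Insr -0.11 to 0.10 and Sesn3 -0.11 to 0.07.

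Replicate numbers did not pair the arrays: deviations of arrays with the same number correlated at -0.109 to 0.142 over 15 pairs, 1 of them over 0.1. The replicate block is therefore a check only. Low signal limits Foxo3, Insr and Foxo1.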
